A study of Homo sapiens with 14 samples.

Results

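TRMT2A, the human enzyme that methylates uridine 54 of tRNA, was crosslinked to RNA in HAP1 cells by a catalytic method and by ultraviolet light, and the RNAs recovered by the 2 methods were compared. HAP1 cells are a human line with close to a single set of chromosomes. The 6 libraries used were all those labelled as HAP1 with method FICC-Seq (3 libraries) or iCLIP (3 libraries), out of 14 libraries in the series, the others being from HEK293 cells. For FICC-Seq, the cells received 100 µM 5-fluorouracil (5FU) for 24 h and no ultraviolet light. The iCLIP cells received ultraviolet light and no 5FU. These treatments are those of the study's methods, since the labels give every library as untreated and name only the method. Endogenous TRMT2A was immunoprecipitated with the same antibody in both, no cells without the enzyme or without crosslinking were among these libraries, and no library measured how much of each RNA the cells held. More molecules of an RNA, more crosslinking per molecule and an effect of 5FU on the cells can therefore not be told apart in any difference given here. The libraries contain only recovered RNA, so the cell type could not be checked against marker genes, and while the study calls its replicates biological, neither the labels nor the methods read here say that they were separate cultures. The p-values measure only the spread between these libraries.

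A tRNA folds into a cloverleaf, and the T-arm near its 3′ end carries a loop of 7 bases numbered from 54 to 60. In most tRNAs base 54 is a uridine that is methylated to 5-methyluridine, the T that names the loop, whereas initiator methionine tRNA has an adenosine at this position. Base 58 is an adenosine that is often methylated to 1-methyladenosine, at which reverse transcription tends to stop. FICC-Seq relies on 5FU being built into RNA, where the enzyme attacks it and stays linked. Ultraviolet light can link the enzyme to bases that it binds, whether or not it methylates them.

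The T-arms below, bases 44 to 73 of the tRNA, are those of the most counted locus in the anticodon groups that changed most. Loci that differed within the elongator methionine and lysine TTT groups are also given. All were read from the GRCh37 genome (hg19) and are written as DNA with bases 54, 58 and 59 in capitals. The first 6 come from groups whose share rose in FICC-Seq.
tRNA-Ala-CGC-3-1 (chr2:157257323-157257352, + strand): aggtcccgggTtcaATccccggcatctcca
tRNA-Glu-CTC-2-1 (chr1:249168489-249168518, + strand): gcggcccgggTtcgATtcccggtcaggaaa
tRNA-Lys-CTT-3-1 (chr16:3207406-3207435, - strand): gggtcgtgggTtcgAGccccacgttgggcg
tRNA-Gly-GCC-2-3 (chr6:27870686-27870715, - strand): gaggcccgggTtcgATtcccggccaatgca
tRNA-Tyr-GTA-2-1 (chr2:27273709-27273738, + strand): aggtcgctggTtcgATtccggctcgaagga
tRNA-Ala-TGC-5-1 (chr6:28785012-28785041, - strand): aggcctcgggTtcgATccccgacacctcca
The next 5 come from groups whose share fell.
tRNA-iMet-CAT-1-1 (chr1:153643768-153643797, + strand): aggtcgatggAtcgAAaccatcctctgcta
tRNA-Gln-CTG-1-4 (chr15:66161400-66161429, - strand): gcgatccgagTtcaAAtctcggtggaacct
tRNA-Gln-TTG-3-1 (chr6:26311424-26311453, - strand): gcgatccgagTtcaAAtctcggtgggacct
tRNA-Pro-TGG-3-3 (chr16:3208965-3208994, + strand): aggtcccgggTtcaAAtcccggacgagccc
tRNA-Arg-ACG-1-1 (chr6:26328411-26328440, + strand): agattccaggTtcgACtcctggctggctcg
The last 4 are a rising and a falling elongator methionine locus, and the most counted and a falling lysine TTT locus.
tRNA-Met-CAT-6-1 (chr16:87417628-87417657, - strand): aggtcgtgagTtcgAGcctcacacggggca
tRNA-Met-CAT-3-1 (chr6:28912395-28912424, + strand): aggtcctgagTtcgAAcctcagagggggca
tRNA-Lys-TTT-3-2 (chr1:204476158-204476187, - strand): gggtccagggTtcaAGtccctgttcgggcg
tRNA-Lys-TTT-7-1 (chr6:28715564-28715593, + strand): cggtgcagggTtcaAGtccctgttcaggcg

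The values were cDNA counts per genomic position, in which each unique molecule counts once, and they were used as a share of the library total. The iCLIP libraries held 11016, 9417 and 8036 counts and the FICC-Seq libraries 29728, 36009 and 38957. Over a whole group, a count of 0 allows a share of up to 0.0105% in iCLIP and 0.00287% in FICC-Seq (3 counts of the pooled total, counting error only). A tRNA locus was the stretch within 100 nt of a cluster that the study lists as tRNA, and 248 loci in 47 anticodon groups resulted, 7 of the loci being unnamed. The study had chosen these clusters partly on the same libraries. Position 54 could be read from the sequence of 229 loci, 227 with T54 and 2 with A54, which held 98.2% of the tRNA counts. Many tRNA genes are near copies. The 229 loci had 101 different sequences over bases 54 to 73, and 174 of them shared theirs with another locus. As the authors kept uniquely mapping reads, the split of counts between such loci is uncertain, and a group's share covers only reads that could be placed.

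One library stood apart from its group. In FICC-Seq replicate 2, 11.1% of the numbered tRNA counts lay before position 44, whereas the values were 0.828% in replicate 1 and 1.59% in replicate 3. These counts were on many groups, among them Ile-TAT (417 counts against 0 and 6), Ala-CGC (326 against 1 and 3) and Cys-GCA (118 against 0 and 1). The cause was not tested. The groups and loci that moved most when this library was left out are given with and without it. Replicate 1 of iCLIP had the lowest tRNA share of its group.

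Cytosolic tRNA took a larger share of the counts in FICC-Seq than in iCLIP. It held 75.5%, 77.9% and 80.7% of the FICC-Seq libraries and 49.6%, 61.6% and 58.1% of the iCLIP libraries. The groups did not overlap, and the difference of the means was 21.6 percentage points (two-sided exact permutation test, p = 0.1, the smallest p that 3 libraries against 3 can give). Within this larger total, however, the anticodon groups moved apart by very different amounts.

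Of the 47 anticodon groups, 14 rose in their share of the library (29.8% of those tested) and 9 fell (19.1%), by limma-voom with a Benjamini-Hochberg adjusted p under 0.05. The median log2 change over all groups was -0.17. Counted as a share of tRNA alone, which lowers the log2 changes by a median of 0.48, 8 groups rose (17% of those tested) and 15 fell (31.9%). Single libraries moved these numbers. Without iCLIP replicate 1 only 9 groups rose as a share of the library, without iCLIP replicate 2 only 3 rose and 8 fell as a share of tRNA, and without FICC-Seq replicate 2 the falls were 15 and 25.

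**Figure D1:**
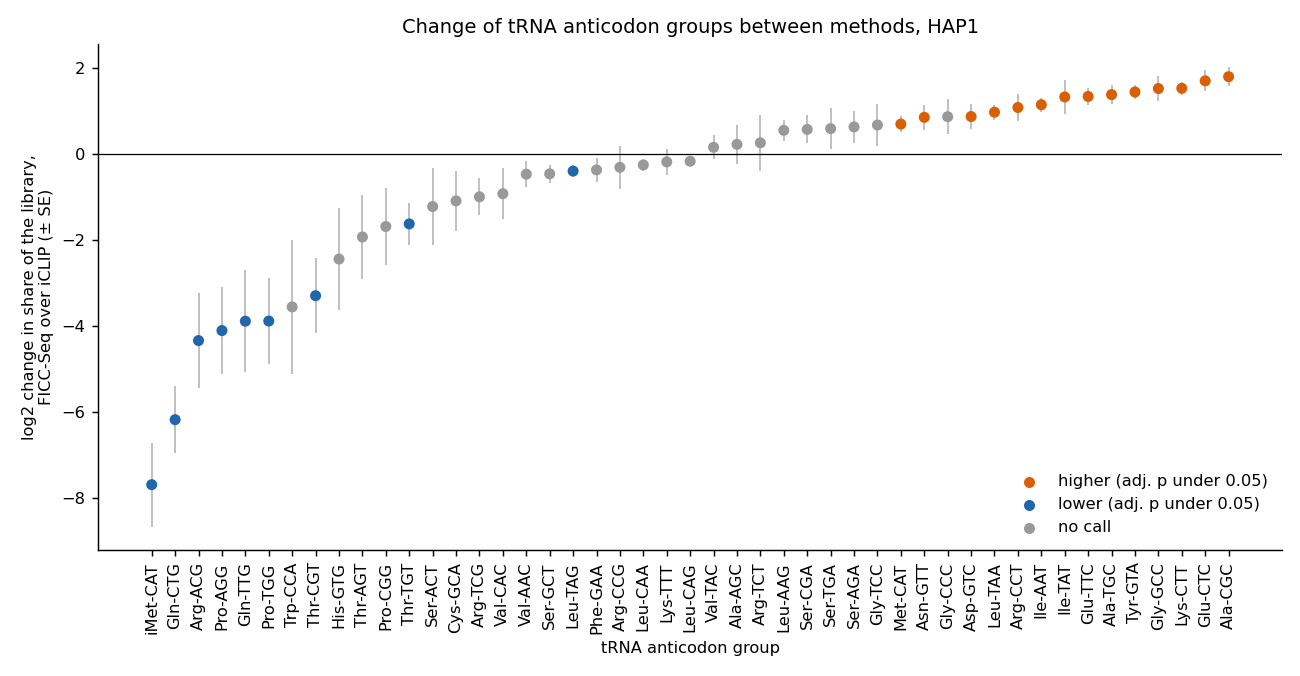
The log2 change in share of the library, FICC-Seq over iCLIP, is plotted for the 47 tRNA anticodon groups in HAP1 cells with its SE, in order of size. The changes run from -7.69 for iMet-CAT to 1.79 for Ala-CGC, and the falls are far larger than the rises.

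The rising groups decode alanine, glutamate, lysine, glycine, tyrosine and others. Ala-CGC made up 0.744%, 1.14% and 0.958% of the iCLIP libraries and 2.95%, 3.63% and 3.12% of the FICC-Seq libraries, a log2 change of 1.79 (SE 0.23, adjusted p = 0.000169). All 3 FICC-Seq libraries lay well above the 3 iCLIP libraries. Lys-CTT rose from 2.55%, 2.94% and 3.12% to 8.67%, 7.73% and 8.07%, a log2 change of 1.52 (SE 0.15). It was the most counted in FICC-Seq of the groups that rose. Tyr-GTA, whose genes contain an intron, was next in abundance with a mean of 2.89% ± 0.415 (SD, n = 3) in iCLIP and 7.69% ± 0.652 (SD, n = 3) in FICC-Seq. Glu-CTC rose by 1.69 on the log2 scale, Gly-GCC by 1.52 and Ala-TGC by 1.37, each without overlap between the libraries. Smaller rises were found for Glu-TTC (1.33), Ile-TAT (1.32), Ile-AAT (1.14), Arg-CCT (1.07), Leu-TAA (0.97), Asp-GTC (0.87), Asn-GTT (0.85) and Met-CAT (0.69). Of these 14 groups, 8 also rose as a share of tRNA, namely the first 6 named here, Glu-TTC and Ile-AAT.

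The falling groups were led by initiator methionine tRNA, which starts protein synthesis. It had 117, 150 and 167 counts in the iCLIP libraries, where it made up 1.58% ± 0.508 (SD, n = 3), and 0, 6 and 4 counts in the deeper FICC-Seq libraries. Its log2 change was -7.69 (SE 0.98, adjusted p = 0.000169), the largest of any group, and both of its loci have A54. The other falling groups have T54. Gln-CTG, a glutamine tRNA, had 29, 25 and 18 counts in iCLIP and 0, 1 and 2 in FICC-Seq, a log2 change of -6.18 (SE 0.78). Its pooled share was 88.3 times lower in FICC-Seq. The second glutamine group, Gln-TTG, had 15, 24 and 14 counts in iCLIP and 0, 32 and 4 in FICC-Seq, so that the fall of 3.89 on the log2 scale rested on libraries of unequal level. Among proline tRNAs, Pro-AGG changed by -4.11 and Pro-TGG by -3.89, with at most 11 counts in any library. Arg-ACG, with 4, 9 and 5 counts against 0, 5 and 0, changed by -4.34. Thr-CGT fell by 3.30 and Thr-TGT by 1.63, and Leu-TAG by only 0.40.

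**Figure D2:**
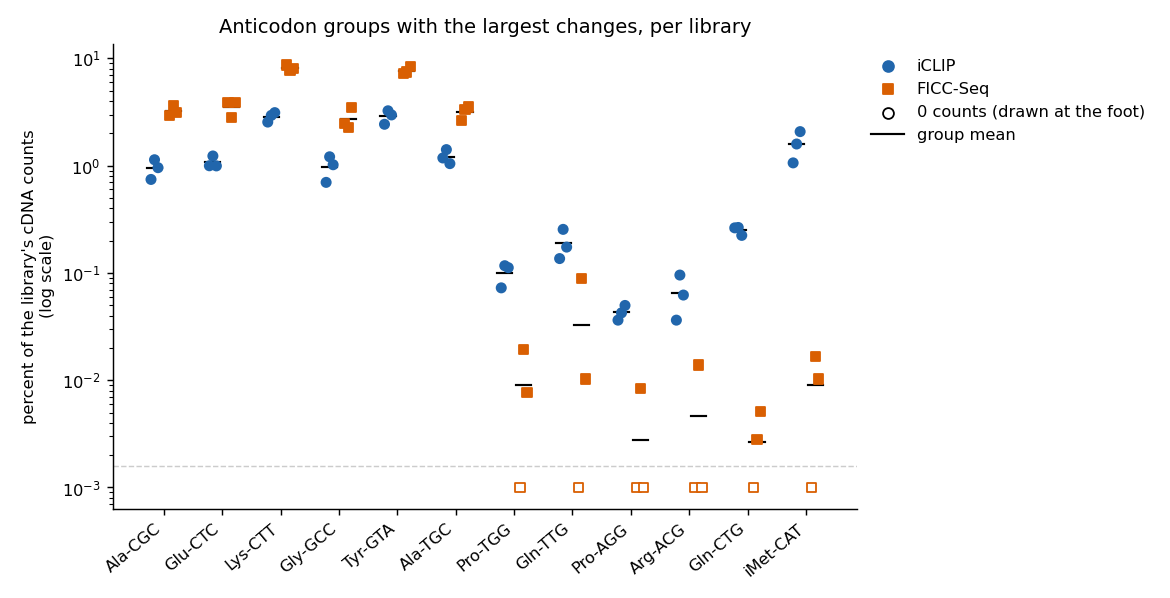
The percentage of each library's cDNA counts on a log axis is plotted for the 6 anticodon groups with the largest rise and the 6 with the largest fall whose libraries did not overlap, circles for iCLIP and squares for FICC-Seq. Open symbols at the foot are libraries with 0 counts, and the lone filled squares of Pro-AGG and Arg-ACG are FICC-Seq replicate 2.

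Without FICC-Seq replicate 2, the number of falling groups rose to 15 and of rising groups to 17. The groups gained on the falling side were Trp-CCA, whose log2 change moved from -3.56 to -5.69, His-GTG (-2.45 to -3.45), Thr-AGT (-1.93 to -3.04), Pro-CGG (-1.69 to -2.48), Cys-GCA (-1.10 to -1.85), Val-CAC (-0.93 to -1.39) and Arg-TCG (to -1.21). Leu-TAG no longer passed the test (-0.38, limma adjusted p = 0.0803). Among the groups that fell in either case, the log2 change moved from -3.89 to -5.40 in Gln-TTG, from -4.34 to -5.46 in Arg-ACG, from -3.30 to -4.50 in Thr-CGT, from -4.11 to -5.01 in Pro-AGG and from -3.89 to -4.72 in Pro-TGG. It moved from -7.69 to -8.40 in iMet-CAT and from -1.63 to -2.20 in Thr-TGT. Trp-CCA shows the pattern plainly, with 12 counts in each iCLIP library and 1, 78 and 0 in FICC-Seq. Leu-CAA, the most counted group by either method, had 13.4% ± 1.72 (SD, n = 3) in iCLIP and 11.1% ± 0.741 (SD, n = 3) in FICC-Seq, and the change did not pass the test (log2 change -0.26, adjusted p = 0.124). As shares of tRNA, Leu-CAA (-0.73), Leu-CAG (-0.64), Leu-TAG (-0.87), Ser-GCT (-0.95), Val-AAC (-0.94), Phe-GAA (-0.86) and Arg-TCG (-1.50) all fell.

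Single loci split some groups. Of 239 tRNA loci with at least 10 counts, 61 rose (25.5% of those tested) and 39 fell (16.3%). With median-ratio scaling in place of the library total, which lowers the log2 changes of loci and regions by a median of 0.46 and those of groups by 0.13, 40 rose and 59 fell. Without iCLIP replicate 1 only 32 loci rose, and without iCLIP replicate 3 only 35. Met-CAT-6-1 rose from 105, 119 and 91 counts to 767, 870 and 941 (log2 change 1.16, SE 0.15, adjusted p = 0.000666), while Met-CAT-3-1 fell from 23, 14 and 14 counts to 2, 6 and 3 (-4.03, SE 0.54, adjusted p = 0.000792). Both carry the CAT anticodon and T54. Lys-TTT-7-1 likewise fell from 18, 13 and 14 counts to 1, 0 and 2 (-5.52, SE 0.70), whereas the most counted locus of that group, Lys-TTT-3-2, had 27, 14 and 17 counts against 64, 88 and 120 and did not pass the test (0.34, adjusted p = 0.467). Cys-GCA-2-4 fell by 5.06. At Ser-GCT-3-1, a serine locus, the share rose by 1.02 although its group did not rise. The 5 loci with the largest rise were 2 unnamed loci (3.46 and 3.31), Asn-GTT-2-6 (2.87), Glu-CTC-3-1 (2.60) and Ala-CGC-1-1 (2.42), with between 0 and 12 counts in an iCLIP library. An elongator methionine locus with T59, Met-CAT-1-1, also rose (1.18), and a second one with A59, Met-CAT-3-2, fell (-2.58). Asn-GTT-2-6 has the same bases 54 to 73 as 5 other loci, and Lys-CTT-3-1 as 8 others. The A54 locus iMet-CAT-1-5 had 14, 24 and 21 counts in iCLIP and none in FICC-Seq, which is at least 72.3-fold lower (0 taken as 3 counts over the group).

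The T-loops printed above differ at position 59, a feature noticed after the values were seen and given here as a description. In 8 of the 9 falling groups the most counted base at this position was A, and in the other, Arg-ACG, it was C. The 14 rising groups had T in 8 cases, G in 5 and A in 1, Leu-TAA. A59 was also the most counted base in 12 groups that passed the test in neither direction, beside 6 with T and 5 with G. Among the loci, 87 with A59 had a median log2 change of -0.93, with 8 that rose and 28 that fell. The 76 loci with T59 had a median of 1.05, with 33 that rose and 3 that fell, and the 51 with G59 a median of 0.59, with 15 that rose and 4 that fell. All 220 loci of known position had a median of 0.24. The lowest values were those of the 28 loci with A at both 57 and 59, whose median was -2.67, with none that rose and 13 that fell. With the counts at position 58 left out, 21 of them were tested, the median was -0.92 and 3 fell. Without FICC-Seq replicate 2 the median was -3.24, with 1 that rose and 20 that fell, and 39 of all the A59 loci fell, with a median of -1.30. These 28 loci include the glutamine, proline and Cys-GCA loci above. Met-CAT-6-1 has G59 and Met-CAT-3-1 has A59, whereas both Lys-TTT loci have G59. Loci share sequences and are not independent. Taken once for each of the 36 different sequences of bases 54 to 73 with A59 and the 36 with T59, the medians were -0.55 and 0.81. For G59 the sign was not kept, since its 24 sequences had a median of -0.34, between those of A59 and T59. With all counts at position 58 left out, the median was -0.10 for the 74 A59 loci that still had enough counts and 1.10 for the T59 loci, and 9 of the A59 loci fell. Position 58 held 32.4% ± 1.98 of the counts of A59 loci in iCLIP and 30.3% ± 3.29 in FICC-Seq (SD, n = 3 each). The part of 1-methyladenosine and of mapping in these values was not tested.

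Within the tRNA, the 2 methods marked different positions. In FICC-Seq, 44.4%, 40.4% and 43.3% of the numbered counts were at position 53 and 22.6%, 21.2% and 25.2% at 54, as the files give them. In iCLIP these were 5.22%, 8.48% and 4.01% at 53 and 14.7%, 21.6% and 11.1% at 54. As annotated, position 53 separated the methods, while at 54 the ranges overlapped. By the study's account, reverse transcription more often reads through a catalytically linked base. A FICC-Seq count at 53 is then predicted to mark uridine 54, while an ultraviolet count usually marks the linked base itself. The same number can therefore stand for different bases in the 2 methods. Position 58 held 19.7% ± 2.71 (SD, n = 3) in FICC-Seq and 25.8% ± 2.69 (SD, n = 3) in iCLIP. Ultraviolet light gave peaks at 48 (8.76% ± 1.72, SD, n = 3) and at 61 (9.15% ± 3.02, SD, n = 3), on either side of the T-loop, and FICC-Seq had 0.151% ± 0.256 (SD, n = 3) and 0.110% ± 0.0467 (SD, n = 3) there. For each of 53, 58, 48 and 61 the groups did not overlap, and the exact permutation p was 0.1.

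The peaks of iCLIP were carried by different tRNAs. At position 48, just before the T-stem, Lys-CTT had the most counts, with 74, 98 and 59 in iCLIP and 0, 3 and 0 in FICC-Seq. At position 61, in the 3′ strand of the T-stem, the leucine groups led. Leu-CAA had 124, 193 and 184 counts there in iCLIP and 0, 3 and 0 in FICC-Seq, and Leu-CAG 59, 96 and 107 against 1, 1 and 0. The most counted iCLIP position was 58 in 34 groups, 54 in 6, 48 in 4, 53 in 1 and 61 in 1. In FICC-Seq it was 53 in 30 groups, 58 in 8 and 54 in 4, and the remaining groups had few counts. In the groups with the largest falls, position 58 held 69.4% of the iCLIP counts of Gln-CTG, 86.8% of Gln-TTG, 75% of Pro-AGG, 64.3% of Pro-TGG, 48.6% of iMet-CAT and 44.4% of Arg-ACG. Groups that did not fall also had high values, with 61.1% in Ser-AGA, 53.6% in Ser-TGA and 52.2% in Ser-CGA.

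Positions were then tested inside each group against the rest of that group (limma, diffSplice), so that the total of a group cancels out. Bins of one group add up to a whole, and a rise in one lowers the others. Of 248 bins, 45 rose (18.1% of those tested) and 63 fell (25.4%). Positions 53 and 54 together rose in 36 of 42 groups and fell in none, and positions 44 to 48 fell in 26 of 32. Positions 59 to 65 fell in 14 of 30, and positions before 44 fell in 16 of 41. Lys-CTT had 19.4%, 24.0% and 11.2% of its iCLIP counts at 53 and 54 and 79.3%, 78.8% and 76.7% of its FICC-Seq counts. Its part at 44 to 48 went from 34.3% ± 8.73 (SD, n = 3) to 0.0932% ± 0.111 (SD, n = 3). Tyr-GTA had 23.5% ± 15.7 (SD, n = 3) at 53 and 54 in iCLIP and 77.6% ± 5.68 (SD, n = 3) in FICC-Seq. Leu-CAA, which did not rise as a group, still went from 23.9% ± 4.12 to 54.3% ± 1.63 (SD, n = 3 each) at these positions. The 6 groups in which 53 and 54 did not pass the test were iMet-CAT, Arg-TCT, His-GTG, Pro-CGG, Pro-TGG and Trp-CCA, all with at most 100 counts in FICC-Seq. In iMet-CAT, none of the 10 FICC-Seq counts lay at 53 or 54.

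**Figure D3:**
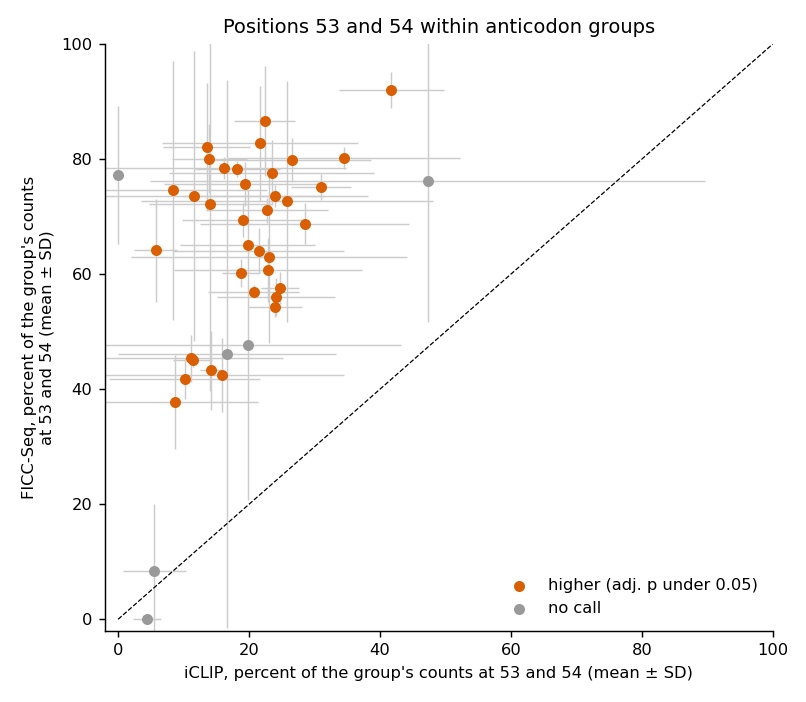
Each point is an anticodon group, with the percentage of its counts at positions 53 and 54 in iCLIP on the horizontal axis and in FICC-Seq on the vertical axis, as means with SD over the libraries in which the group had counts, bars beyond the axes being clipped. The line marks equal values, and 41 of the 42 groups lie above it, the exception being iMet-CAT.

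Position 58 did not move one way. Of 43 groups tested, it rose within its group in 8, which were Ala-CGC, Ala-TGC, Glu-CTC, Glu-TTC, Ile-AAT, Leu-CAA, Leu-CAG and Leu-TAA. It fell in 4, Lys-TTT, Thr-AGT, Thr-CGT and Val-CAC. Over all bins, 18.1% rose and 25.4% fell, but 36 of the 45 rises were those of positions 53 and 54. Apart from these and position 58, the only rise was in 1 of the 22 bins at 49 to 52. In Ala-CGC position 58 held 21.0%, 15.9% and 13.2% of the iCLIP counts and 42.2%, 25.7% and 38.0% of the FICC-Seq counts. In Thr-CGT, a threonine tRNA, it held 45.5% ± 6.93 (SD, n = 3) in iCLIP and 6.67% ± 11.5 (SD, n = 3) in FICC-Seq.

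Outside the tRNA loci, most classes of RNA lost share in FICC-Seq. Histone genes changed by -7.01 on the log2 scale, mitochondrial RNA by -5.07, small noncoding RNA by -4.72, rRNA by -3.68, exons of protein-coding genes by -3.34 and introns by -1.73, each with an adjusted p of at most 0.00747 and no overlap of libraries. The histone class was almost only HIST1H4B, which held 135 of its 147 iCLIP counts and is described below. Exons of protein-coding genes made up 2.99% ± 0.421 (SD, n = 3) of the iCLIP counts and 0.297% ± 0.0638 (SD, n = 3) of the FICC-Seq counts. Introns had 14.6%, 7.50% and 9.71% against 3.25%, 3.59% and 2.57%, the first iCLIP library being the highest. Regions resembling the 3′ end of a tRNA had 8.91% ± 1.61 against 10.1% ± 1.79 (SD, n = 3 each), and the difference did not pass the test (adjusted p = 0.367). Nor did that of further tRNA genes found by sequence outside the listed clusters, with 3.21% ± 0.631 against 2.63% ± 0.288 (SD, n = 3 each, adjusted p = 0.242).

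**Figure D4:**
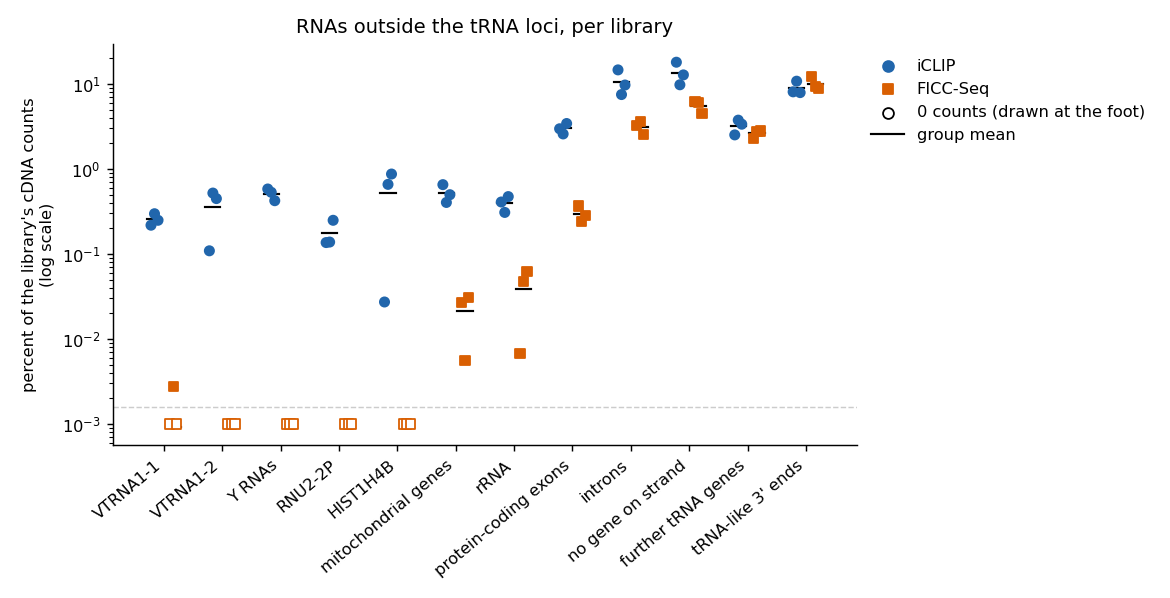
The percentage of each library's cDNA counts on a log axis is plotted for single RNAs and classes outside the tRNA loci, circles for iCLIP and squares for FICC-Seq, with open symbols at the foot for 0 counts. VTRNA1-2, the Y RNAs, RNU2-2P and HIST1H4B had no count in any FICC-Seq library, while tRNA-like 3′ ends overlap between the methods.

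Named noncoding RNAs that ultraviolet light recovered were almost missing from FICC-Seq. Vault RNAs, components of the large vault particle, had 38, 80 and 59 counts in iCLIP and 0, 3 and 0 in FICC-Seq. VTRNA1-2 had 12, 49 and 36 against none, at least 119-fold lower, with the fit across all loci and regions at adjusted p = 0.00184. VTRNA1-1 had 24, 28 and 20 against 0, 1 and 0, a pooled ratio of 265 (95% exact interval 46.0 to 10602, counting error only). VTRNA1-3 also fell, with 2, 3 and 3 against 0, 2 and 0, which is close to the minimum of 10 counts for testing. The highest iCLIP positions of the first 2 lay in the stretches below, in capitals (GRCh37).
VTRNA1-1 (chr5:140090882-140090911, + strand): tacttcgacagttcTttaattgaaacaagc
VTRNA1-2 (chr5:140098527-140098556, + strand): gcggttacttcgagTacattgtaaccacct
RNU2-2P (chr11:62609145-62609174, - strand): aataggagatggaaTaggagcttgctccgt
The third is RNU2-2P, a gene for U2 RNA of the spliceosome, which had 15, 13 and 20 counts against none, at least 58.8-fold lower. The highest position was a T in these 3 RNAs.

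Y RNAs, small RNAs bound by the Ro protein, had 64, 50 and 34 counts over 10 gene names in iCLIP and none in FICC-Seq, at least 181-fold lower. Many are near copies, and the single region with at least 10 counts, a Y RNA copy on chromosome 7, had 6, 4 and 0. RNAs for 7SK, the signal recognition particle, RNase P and RNase MRP had 32 counts in iCLIP and 3 in FICC-Seq, all 11 counts of RMRP being in iCLIP. All snRNA genes together had 115, 28 and 55 counts against 5, 18 and 6. Small nucleolar RNAs were rare, with 8 counts in iCLIP and 0 in FICC-Seq. Ribosomal RNA had 45, 29 and 38 counts against 2, 17 and 24, and 1 of its 3 regions fell. HIST1H4B, a gene for histone H4, had 3, 62 and 70 counts in iCLIP and none in FICC-Seq, at least 165-fold lower (limma adjusted p = 0.0357). The study describes iCLIP sites in both the 3′ coding sequence and the 3′ untranslated region of this gene. The 3 iCLIP libraries were far apart, the first being the low one, and the call was lost without iCLIP replicate 2 (log2 change -6.60, limma adjusted p = 0.0903) or without FICC-Seq replicate 2 (-7.31, 0.0864). It was also lost in 4 other settings, with adjusted p = 0.227 after thinning to the smallest library (-5.41), 0.0751 with a window of 30 nt, 0.0695 without single-count positions and 0.0619 without position 58. Its highest iCLIP position, in capitals, was a C (GRCh37).
HIST1H4B (chr6:26027195-26027224, - strand): atgtggtttacgcgCtcaagcgtcaaggac

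Mitochondrial transcripts had 72, 38 and 40 counts on 20 genes in iCLIP and 8, 2 and 12 in FICC-Seq. All 3 mitochondrial regions tested fell. MT-TL1, the leucine tRNA of mitochondria, had 11, 11 and 13 counts against 5, 2 and 4 (log2 change -3.48, adjusted p = 0.00184), and MT-TY, the tyrosine tRNA, 2, 3 and 4 against 0, 0 and 3. The third region lay in MT-ND6, with 8, 2 and 0 counts against none.

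Of 428 regions outside the tRNA loci with at least 10 counts, 14 rose (3.27% of those tested) and 64 fell (15%). A region could reach this minimum through a single method, and at a minimum of 30 counts 16 rose and 20 fell. At the minimum of 10, the number that rose was 5, 6 and 4 without iCLIP replicate 1, 2 or 3. It was 23 without FICC-Seq replicate 2 and 21 without FICC-Seq replicate 3. By class, 5 of 6 small noncoding RNA regions, 10 of 39 further tRNA genes, 19 of 96 regions with no gene on the strand, 7 of 43 introns and 17 of 229 regions resembling a tRNA end fell, and 10 of those 229 rose. The falls among further tRNA genes were split by base 54. All 5 genes with A54 fell, with log2 changes from -6.90 to -5.17, and of the 34 with T54, 5 fell and 2 rose. The A54 gene on chromosome 17 had 16, 33 and 23 counts against 0, 1 and 1, and that at chr6:26330539-26330610 had 11, 17 and 24 against none. The highest riser among these genes by count, at chr1:161493648-161493715, has T59 and went from 28, 29 and 27 to 250, 252 and 318 (log2 change 1.39, SE 0.26, adjusted p = 0.00312).

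Most regions that rose carried a tRNA sequence. A region was called tRNA-like when the 18 bases after its highest position matched bases of a listed tRNA from 54 onwards, CCA included, with at most 3 mismatches. This held for 229 of the 428 regions and for 10 of the 14 that rose. Their highest positions matched tRNA position 58 in 116 regions, 53 in 59 and 54 in 52. By the definition only positions from 53 to 58 could be matched, so peaks elsewhere in a tRNA sequence could not appear here. Of the 111 such regions with A at the place of base 59, 2 rose and 16 fell, with a median log2 change of 0.34, which is above 0 unlike that of the A59 loci. Of the 67 with T, 4 rose and none fell (median 0.74), of the 35 with G, 3 rose and 1 fell (0.80), and of the 16 with C, 1 rose and none fell (1.13). The 2 with the largest rise matched without a mismatch, and the next 2 with 1 or more, shown here from the base after the peak with mismatches in capitals.
chr5:51600846-51600863 (- strand), as tRNA-Lys-CTT-1-1: ttcgagccccacgttggg
chr19:19852258-19852275 (+ strand), as an unnamed tRNA of the list: ttcgattcctggtcaggg
chr4:99970334-99970351 (- strand), nearest tRNA-Ala-AGC-4-1: ttcAaCccccaAcatctc
chr1:171570073-171570090 (- strand), nearest tRNA-Glu-CTC-1-1: tcgTttcccggtcaggga
The region on chromosome 5 had 2, 0 and 0 counts in iCLIP and 44, 31 and 48 in FICC-Seq, a pooled ratio of 16.7 (95% exact interval 4.53 to 140, counting error only). That on chromosome 19, in an intron of a pseudogene, had 0, 1 and 0 against 40, 29 and 26. The region on chromosome 4 had 0, 0 and 1 against 27, 18 and 27, and that on chromosome 1 had 4, 2 and 5 against 75, 84 and 114 (log2 change 2.65, adjusted p = 0.00308). Whether such counts are reads of tRNAs placed at look-alike sites was not tested. The region outside this class with the largest rise, on chromosome 22 with no gene on its strand, had 0, 1 and 0 against 23, 16 and 20, and its nearest tRNA end had 5 mismatches. In an intron of CCDC148, a region that was among the 5 most counted in FICC-Seq had 40, 19 and 13 counts in iCLIP and 162, 145 and 152 in FICC-Seq, which did not pass the test (log2 change 0.85, adjusted p = 0.100). A region in an intron of the long noncoding RNA SAMD12-AS1 went from 14, 12 and 6 to 145, 141 and 94 (log2 change 1.61, adjusted p = 0.0474).

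The change between methods was also set against that in the 6 libraries of HEK293 cells, a human embryonic kidney line. In a limma-voom fit of all 12 libraries, no anticodon group of 47 had a difference between the cell lines with an adjusted p under 0.05 (0% called), and the lowest adjusted p was 0.0948. At an unadjusted p under 0.05 there were 6 groups. Median-ratio scaling and the fit with a block on the replicate number also gave 0. The closest to the threshold were Lys-CTT, with log2 changes of 1.52 in HAP1 and 2.39 in HEK293, and Ile-AAT, with 1.14 and 1.99. Initiator methionine tRNA had log2 changes of -7.69 in HAP1 and -10.05 in HEK293. A p that misses the threshold does not show that the cell lines were alike.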

How the data were processed

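The authors deposited, for each library, signed whole numbers at single genomic positions, the size being the cDNA count and the sign the strand. Before that they had removed PCR duplicates by random barcodes, trimmed adaptors, mapped reads to hg19 with bowtie and kept uniquely mapping reads in iCount. The sign was used as the strand and the counts were scaled to the library total, from 8036 to 38957. Anticodon groups came from the study's tRNA clusters, joined when less than 40 nt apart, and other positions less than 40 nt apart were joined to regions. Gene names came from the GENCODE annotation lifted to GRCh37. tRNA genes were recognised by their stems (4 or more pairs in the T-stem, 6 or more in the acceptor).

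Log2 shares were fitted across all rows with limma-voom (limma 3.58.1, R 4.3.3, offset 0.5), in place of the count test first planned, with Benjamini-Hochberg adjustment. Loci, regions and bins needed at least 10 counts over the 6 libraries. Intervals on pooled ratios are 95% exact binomial. Python 3.11.15, pandas 2.3.3, scipy 1.17.1 and pysam 0.24.0 were used. Fits were also run on simulated counts with the same spread for all rows and no deviating library, unlike the data here. The simulation therefore does not vouch for the calls. No 2 replicates were the same library, the lowest chi-square per degree of freedom being 2.43.

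Groups named were the 6 with the largest rise and the 6 with the largest fall past the threshold without overlap, and those past it as a share of tRNA. Named loci were the most counted of these groups and the 5 with the largest rise and fall. Named regions were the 6 with the largest rise and fall, the 5 most counted by each method and the members of lists of noncoding, histone and mitochondrial RNAs. Further names, among them the other groups past the threshold, the Met-CAT loci and Lys-TTT-3-2, were chosen after their values were seen. The members and lists were chosen with earlier results of these data known. The miCLIP libraries were not used here.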

Additional observations from a re-analysis of the deposited data

How the results depend on the processing

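The difference in tRNA share was 21.6 percentage points and lay between 18.2 and 24.2 when a library was left out, and fell to 9.85 without positions holding a single count. Left out in turn, the libraries gave 9 to 17 rising groups and 6 to 15 falling groups, or 3 to 11 and 8 to 25 as shares of tRNA. They gave 32 to 65 rising and 27 to 55 falling loci, 4 to 23 rising and 51 to 75 falling regions, and 79 to 127 position bins past the threshold, against 108. All these highest counts of groups, loci, regions and bins came without FICC-Seq replicate 2. Without single-count positions, 9 groups and 39 loci rose and 39 regions fell. A minimum of 1 count, which also tests regions held by a single molecule, gave 72 falling loci and 97 rising and 9868 falling regions, and a minimum of 30 gave 24 falling loci and 20 falling regions. Thinned to the smallest library (median of 10 draws), 37.5 regions fell. Median-ratio scaling gave 40 rising and 59 falling loci and 8 rising regions. Without position 58, 4 groups fell, 4 rose and 8 fell as shares of tRNA, and 16 loci fell. Median-ratio scaling, limma with an intensity trend and leaving out position 58 were chosen after seeing the data. TMM and DESeq2, though planned, were not run.

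Of 99 values for named groups, loci and regions, repeated 1574 times, 1410 kept direction and side of the threshold, 137 lost the call, 14 gained it and 13 changed sign. None of the sign changes passed the threshold. They were Phe-GAA (0.27) and Val-AAC (0.13) as shares of the library without position 58, tRNA-Val-AAC-6-1 (0.15) likewise, tRNA-Phe-GAA-2-1 with median-ratio scaling (-0.0231), tRNA-Leu-TAG-1-1 (-0.115 with median-ratio scaling, -0.0858 without single counts), tRNA-Arg-TCG-3-1 (-0.260 to 0.305 with a library left out, 0.0576 thinned, 0.393 without position 58, 0.0314 with the replicate block), and the further tRNA gene at chr17:8124859-8124929 (-0.00824 to 0.367 with a library left out, -0.241 with median-ratio scaling).

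Replicate numbers were shared by the methods, but same-numbered libraries deviated together only weakly (correlations of 0.0272, 0.202 and 0.132), so the numbers were not taken as pairs. With the replicate number as a block, 15 groups rose and 11 fell, 10 and 20 as shares of tRNA, 67 and 51 loci, 19 and 86 regions, and 96 bins passed. The block moved no count by over 1.5 times.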
